A study of Mus musculus with 13 samples.

Results

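DNA replication and nucleotide synthesis genes were followed here in injured hamstring muscle of mice given dexamethasone, a synthetic glucocorticoid, or saline. The group holds 41 genes chosen by symbol for a known role in the G1/S transition, in copying DNA or in making nucleotides, and all 41 were among the 14911 genes in the deposited table. The choice used no measured value, but it was made with earlier results of these data known. All mice were female C57BL/6 and all received cardiotoxin, a cobra venom protein that kills fibres, by injection into the hamstring at 0.32 mg/kg. The 4 saline mice then had intraperitoneal saline once daily and the 9 dexamethasone mice had dexamethasone at 10 mg/kg once daily. Whole hamstring was taken on day 4, with 1 library of polyadenylated RNA per mouse. The age of the mice is not given in the labels. The submitters report bone in the injured muscle of every dexamethasone mouse (2.40 ± 5.42 mm3) and set aside 1 of 5 saline mice for bone of 0.67 mm3. The drug, bone formation and the choice of bone-free saline mice thus cannot be told apart here.

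Before S phase, the origin recognition complex, Cdc6 and Cdt1 load the ring-shaped MCM2-7 helicase onto DNA, and Cdc45 with the GINS proteins then switches it on. Polymerases with their sliding clamp copy the strands, nucleases and a ligase join the fragments of the lagging strand, and ribonucleotide reductase supplies deoxynucleotides. Transcription of many of these genes is driven by E2F factors once cyclins and their kinases release them from the retinoblastoma protein. In muscle on the days after an injury, dividing cells include myoblasts, fibro-adipogenic progenitors, macrophages and endothelial cells. In whole tissue, more dividing cells and more RNA per dividing cell cannot be told apart.

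Replication genes were higher with dexamethasone. Of the 41 genes 34 rose and 0 fell at an adjusted p under 0.05 (limma with Benjamini-Hochberg adjustment over all genes), against a background of 25.2% of all genes called higher and 22.9% called lower (48.1% in either direction). The median log2 fold change was 0.60 over the 41 genes and 0.0071 over all 14911 genes. In 21 of the 41 (51.2%) all 9 dexamethasone libraries lay above every saline library, compared with 12.9% of all genes. The largest differences were in Rrm2, which rose 2.61-fold, Uhrf1, which rose 2.41-fold, and Mcm10, which rose 2.08-fold. The 7 genes that did not pass were Rpa1, Rpa2, Rfc2, Rfc4, Gins3, Pold1 and Slbp. In the authors' deposited table the counts were also 34 higher and 0 lower.

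**Figure D1:**
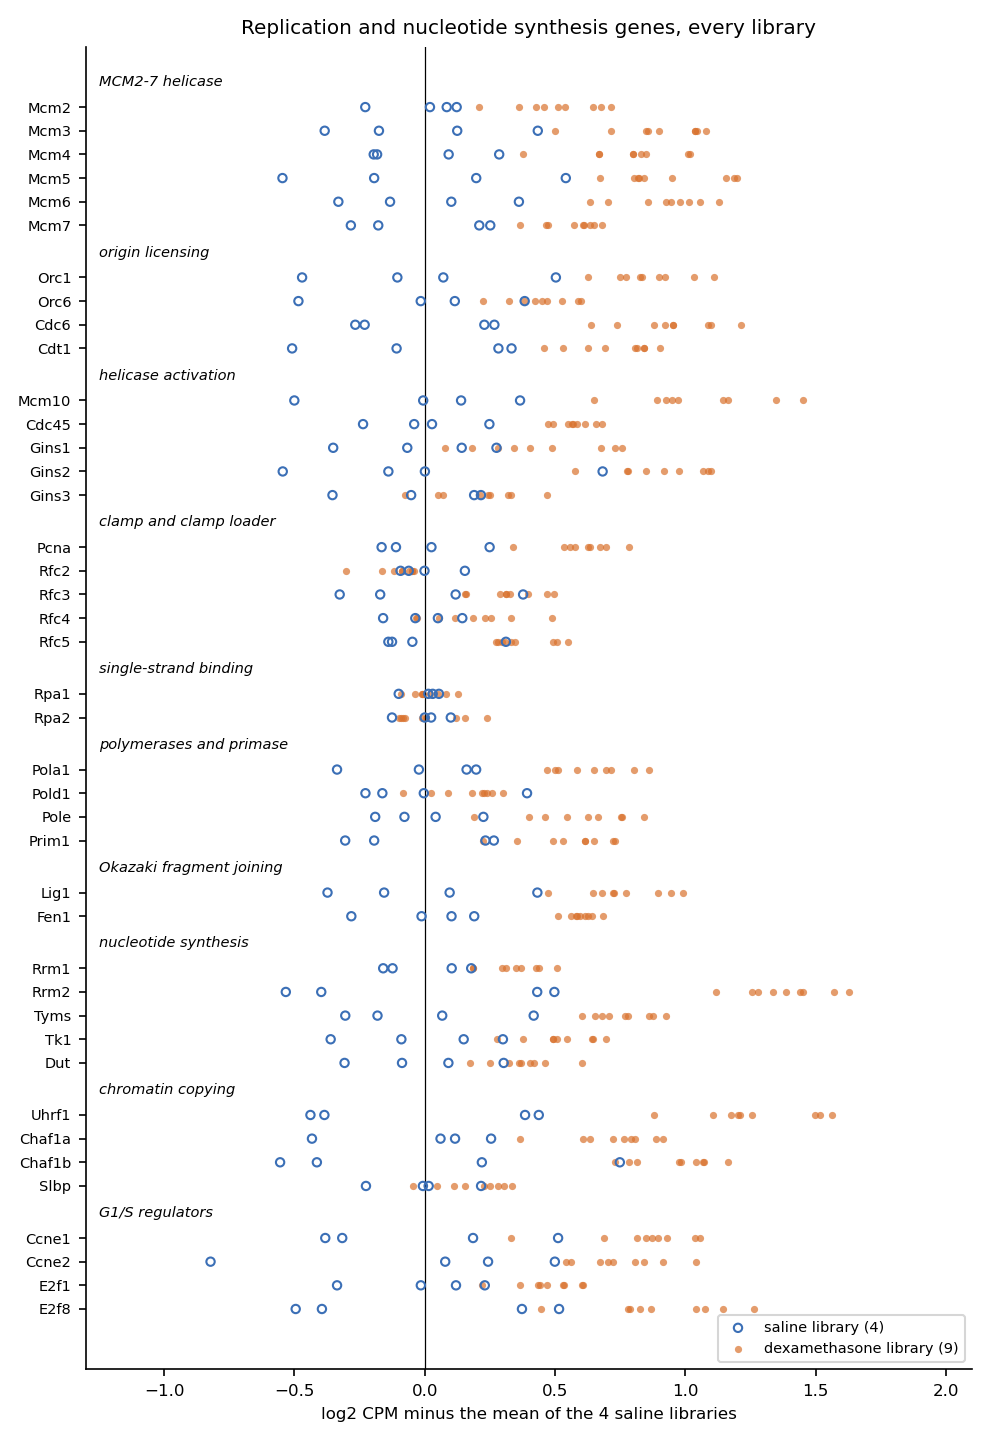
Each row is 1 gene, grouped by role, and the horizontal axis gives log2 CPM minus the mean of the 4 saline libraries. Open circles are saline libraries and filled points are the 9 dexamethasone libraries. In 21 of 41 rows every filled point lies to the right of every open circle, and in Rpa1 and Rpa2 the points mix.

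Values are log2 CPM, that is reads scaled to an effective library size, and a difference of 1 is a doubling. That size was 0.88 (library 1) to 1.00 (library 5) times the reads in saline. With dexamethasone it was 0.99 (library 7) to 1.10 (library 2) times the reads. The libraries held 25531487 to 34942266 reads. The rarest member was Orc1, with 19 to 68 reads per library, and Rrm1 reached 2424 reads. Some libraries stood apart in other genes. Neutrophil markers summed to 334.1 CPM in saline library 3 against 24.2 to 30.7 in the other saline libraries. Without that library 34 members rose and 0 fell. Markers of mature fibres were at 75630 to 169354 CPM in sum, so the genes that define skeletal muscle were abundant in every library.

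Promoters of the group were searched for words that E2F factors are known to bind. The windows ran from 250 bases before to 50 after each start in the RefSeq table (GRCm38.p6, the build called mm10), which held an entry for 35 of the 41 genes. One or more of TTTCCCGC, TTTGGCGC, TTTCGCGC and TTTGCCGC, on either strand, stood in 13 of the 35 (37.1%). Of all measured genes with an entry 4.37% held one, and 2.60% of all genes with a RefSeq entry did. Among 38 replisome and origin factors outside the group, 9 of the 30 with an entry held one (30%), so the words were not particular to the 41 genes. Among genes that rose it was 11 of 29 (37.9%) and among those not called 2 of 6. The 5 sequences below are bases upstream of the RefSeq gene, 5′ to 3′, with the E2F words in capitals. They show a gene with 3 words, a gene with overlapping words, a word beside the start, a word in a gene that was not called, and the gene with the largest change, which holds none.
Mcm6: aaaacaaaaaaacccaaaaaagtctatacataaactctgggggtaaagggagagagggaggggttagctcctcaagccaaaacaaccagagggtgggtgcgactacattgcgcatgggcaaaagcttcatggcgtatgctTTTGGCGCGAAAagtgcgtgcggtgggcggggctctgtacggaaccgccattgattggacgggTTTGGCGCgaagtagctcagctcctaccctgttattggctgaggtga
Mcm5: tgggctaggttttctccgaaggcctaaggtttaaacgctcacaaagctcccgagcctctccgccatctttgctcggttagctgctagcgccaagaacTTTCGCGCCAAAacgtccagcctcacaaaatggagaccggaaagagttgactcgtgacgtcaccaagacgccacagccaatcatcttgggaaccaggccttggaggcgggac
Rfc3: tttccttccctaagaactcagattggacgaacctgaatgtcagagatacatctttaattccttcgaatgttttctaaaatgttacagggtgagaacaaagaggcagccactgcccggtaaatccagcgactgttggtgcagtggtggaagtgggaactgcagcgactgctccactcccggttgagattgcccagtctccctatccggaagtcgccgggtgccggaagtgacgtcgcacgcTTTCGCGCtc
Gins3: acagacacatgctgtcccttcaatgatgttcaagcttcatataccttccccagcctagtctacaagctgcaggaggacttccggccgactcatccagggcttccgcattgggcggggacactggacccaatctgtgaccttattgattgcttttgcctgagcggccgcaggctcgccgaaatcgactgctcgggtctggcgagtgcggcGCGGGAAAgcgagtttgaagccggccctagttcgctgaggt
Rrm2: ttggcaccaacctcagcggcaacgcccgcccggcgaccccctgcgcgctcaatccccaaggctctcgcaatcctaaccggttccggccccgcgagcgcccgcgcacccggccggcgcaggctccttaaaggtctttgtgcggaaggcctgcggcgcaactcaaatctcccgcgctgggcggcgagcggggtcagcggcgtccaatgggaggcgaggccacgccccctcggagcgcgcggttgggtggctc

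The Mcm6 stretch is chr1:128359706-128359955 on the minus strand and that of Rfc3 is chr5:151651209-151651458 on the minus strand. Mcm5 is shown from chr8:75109259-75109467, Gins3 from chr8:95633309-95633558 and Rrm2 from chr12:24708004-24708253, all on the plus strand. The Mcm5 stretch ends 41 bases before the RefSeq start from which positions are counted, where the gene's annotated span begins. GENCODE M21 places the starts of Mcm5 and Mcm6 further into the gene than RefSeq does. In Mcm5 and Mcm6 a pair of words on opposite strands overlapped by 4 bases, so the site is not 2 separate ones. A match is a description of the letters, and no match says only that these letters were not in the window. Other words were spread differently. The CCAAT box was in 62.9% of the group and 42.2% of measured genes, and in 18 of the 21 mitosis genes with an entry (85.7%). The word TTTGAA of the cell cycle homology region, found in promoters of late cell cycle genes, was in 14.3% of the group and 14.6% of measured genes, against 71.4% of the mitosis list. The glucocorticoid receptor core word AGAACA was in 14.3% of the group and 15.3% of measured genes, and the GC box GGGCGG in 77.1% and 65.4%.

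**Figure D2:**
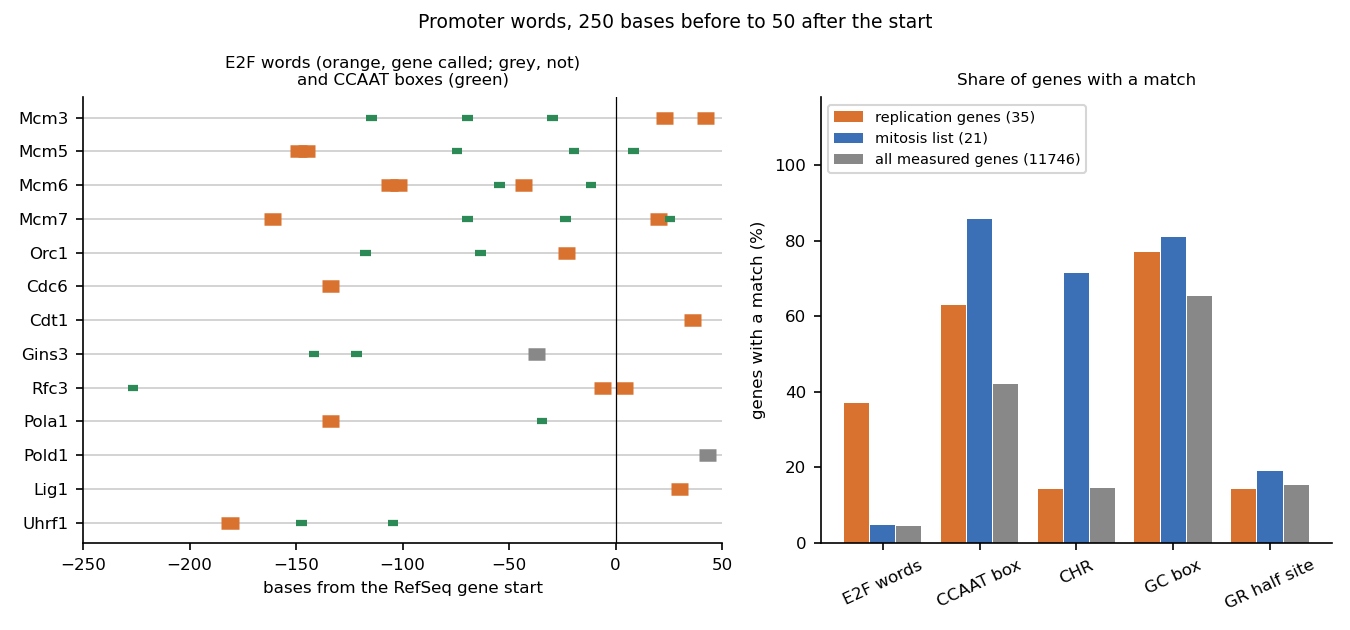
Left, positions of the E2F words and CCAAT boxes along the promoter of the 13 members that hold an E2F word, in bases from the RefSeq start. Right, share of genes with a match to each word in the 35 replication genes, the 21 mitosis genes and 11746 measured genes. E2F words were in 37.1% of the replication genes and 4.76% of the mitosis genes, and the cell cycle homology region (CHR) in 14.3% and 71.4%. Replisome and origin factors outside the group, not drawn, held E2F words in 30%.

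The 6 subunits of the MCM2-7 helicase all rose, 1.42- to 1.92-fold, and in each of them no dexamethasone library overlapped a saline one. Mcm6 (Entrez 17219, chr1:128331575-128359705) stood at 4.21, 4.41, 4.65 and 4.91 log2 CPM in saline libraries 1, 2, 3 and 5. In the dexamethasone libraries it ran from 5.18 to 5.67, with a median of 5.49. The lowest dexamethasone library was thus above the highest saline library, and Mcm6 rose by 0.92 ± 0.11 on the log2 scale (SE; adjusted p 9.06e-06, limma). Mcm4 was at 3.95, 3.94, 4.22 and 4.42 in saline and from 4.51 to 5.15 (median 4.93) with dexamethasone. It rose by 0.78 ± 0.11 (adjusted p 3.68e-05, limma). Mcm2, the subunit with the smallest difference, was at 4.01, 4.32, 4.36 and 4.26 and from 4.45 to 4.95 (median 4.75). Its log2 fold change was 0.50 ± 0.09 (adjusted p 0.000271, limma), with groups that did not overlap. Per kilobase of exon (GENCODE M21 lengths), mean levels of the subunits spanned 1.99 (Mcm5) to 2.98 (Mcm7) log2 CPM per kb in saline and 2.93 (Mcm5) to 3.54 (Mcm7) with dexamethasone. Mcm5 and Mcm3, at 1.92- and 1.85-fold, moved most along with Mcm6, at 1.89-fold.

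Origin licensing genes rose as well, all 4 of them. Cdc6, an ATPase that helps load the helicase, was at 1.41, 1.38, 1.87 and 1.91 log2 CPM in the saline libraries and from 2.28 to 2.86 (median 2.60) with dexamethasone. The groups were apart, and Cdc6 rose by 0.94 ± 0.13 (SE; adjusted p 2.33e-05, limma). Cdt1, its partner in loading, was at 2.61, 3.01, 3.41 and 3.46 in saline and from 3.58 to 4.02 (median 3.93), a rise of 0.72 ± 0.13 (adjusted p 0.000322, limma). Orc6, a subunit of the origin recognition complex, was at 2.57, 3.04, 3.17 and 3.44 and from 3.27 to 3.65 (median 3.50). Its rise of 0.44 ± 0.12 passed (adjusted p 0.00618, limma), with 6 of 9 dexamethasone libraries above every saline one. Orc1, the subunit whose level changes with the cell cycle, rose 1.82-fold without overlap, at -0.40 to 0.57 log2 CPM in saline and 0.70 to 1.18 with dexamethasone.

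Of the 5 genes that activate the helicase 4 rose. Mcm10, which acts as origins fire, was at 1.06, 1.55, 1.70 and 1.92 log2 CPM in saline and from 2.21 to 3.01 (median 2.53) with dexamethasone. It rose by 1.06 ± 0.16 (SE; adjusted p 6.2e-05, limma), with no overlap. Cdc45, which joins the helicase when it starts, was at 2.42, 2.68, 2.90 and 2.61 and from 3.13 to 3.33 (median 3.22), a narrow band above every saline library. The rise was 0.58 ± 0.08 (adjusted p 3.49e-05, limma). The GINS subunits were unequal. Gins2 rose 1.87-fold and Gins1 1.35-fold, but Gins1 missed the threshold when saline library 1 was left out (adjusted p 0.0989, limma) and when library 2 was (0.0581). Gins3 was at 1.45, 1.15, 1.70 and 1.72 in saline and from 1.43 to 1.97 (median 1.75), with overlapping groups, and its log2 fold change of 0.21 had a 95% interval from -0.06 to 0.48 (adjusted p 0.188, limma).

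The sliding clamp rose and its loader was mixed. Pcna, the ring that holds polymerases on DNA, was at 4.71, 4.77, 4.90 and 5.13 log2 CPM in saline and from 5.22 to 5.66 (median 5.50) with dexamethasone. All 9 dexamethasone libraries were above saline, a rise of 0.60 ± 0.08 (SE; adjusted p 2.12e-05, limma). Of the 4 loader subunits in the group, Rfc5 and Rfc3 rose 1.30- and 1.25-fold. Rfc1, a loader subunit outside the group, rose 1.13-fold (adjusted p 0.0121, limma). Rfc5 was at 2.81, 2.82, 2.90 and 3.26 in saline and from 3.22 to 3.50 (median 3.28), so that only saline library 5 overlapped (adjusted p 0.00254, limma). The Rfc3 call was lost without saline library 1 (log2 fold change 0.22, adjusted p 0.122, limma) or 2 (0.27, adjusted p 0.0945, limma). It was also lost by the exact rank sum test (adjusted p 0.137), as was that of Rfc5 (adjusted p 0.0713). On the 8 libraries numbered in both groups Rfc3 had an adjusted p of 0.115 (limma). Rfc4 was at 2.49, 2.19, 2.31 and 2.40 and from 2.31 to 2.83 (median 2.53), with a log2 fold change of 0.18 (95% interval -0.04 to 0.39; adjusted p 0.163, limma). Rfc2 had a log2 fold change of -0.11 (95% interval -0.23 to 0.02; adjusted p 0.149, limma), and under quantile normalisation it was called lower at -0.15 (adjusted p 0.0426, limma).

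The single-strand binding proteins, which coat unwound DNA in replication and in repair, did not pass. Rpa1 was at 5.78, 5.80, 5.76 and 5.65 log2 CPM in saline and from 5.66 to 5.88 (median 5.74) with dexamethasone. Rpa2 was at 4.25, 4.33, 4.10 and 4.23 and from 4.13 to 4.47 (median 4.22). The groups overlapped in both. The log2 fold change of Rpa1 was 0.01 (95% interval -0.09 to 0.11; adjusted p 0.831, limma) and that of Rpa2 0.02 (-0.13 to 0.17; adjusted p 0.856, limma).

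Of the 4 polymerase and primase genes 3 rose. Pola1, the catalytic subunit of the polymerase that extends primers, was at 2.10, 2.42, 2.64 and 2.60 log2 CPM in saline and from 2.91 to 3.30 (median 3.09) with dexamethasone, without overlap. It rose by 0.64 ± 0.10 (SE; adjusted p 0.000122, limma). Pole, of the leading strand, was at 2.82, 2.93, 3.05 and 3.23 and from 3.20 to 3.85 (median 3.63), with 8 of 9 dexamethasone libraries above saline and a rise of 0.58 ± 0.11 (adjusted p 0.000504, limma). Prim1, the primase subunit that makes RNA primers, rose 1.46-fold. Pold1, of the lagging strand, was at 4.05, 4.21, 3.99 and 4.61 and from 4.13 to 4.52 (median 4.44), so that every dexamethasone library lay inside the saline range. Its log2 fold change of 0.16 (95% interval -0.05 to 0.37; adjusted p 0.189, limma) became 0.29 without saline library 5 and then passed (adjusted p 0.00813, limma). Other subunits of these enzymes, outside the group, were unequal within an enzyme. Pole2 rose by 0.80 (adjusted p 0.00185, limma), but Pole3 and Pole4 were not called (0.005 and 0.06). Pold2 rose by 0.21 (adjusted p 0.00884, limma), but Pold3 and Pold4 were not called (-0.003 and -0.22). Pola2 was not called either (-0.09). Both genes that join Okazaki fragments rose without overlap. Lig1, the ligase, was at 3.42, 3.63, 3.88 and 4.22 and from 4.26 to 4.78 (median 4.51). Fen1, the flap nuclease, was at 3.14, 3.41, 3.53 and 3.62 and from 3.94 to 4.11 (median 4.02), the narrowest dexamethasone band of the group. Their rises were 0.76 ± 0.12 (adjusted p 0.000111, limma) and 0.60 ± 0.07 (adjusted p 9.88e-06, limma).

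**Figure D3:**
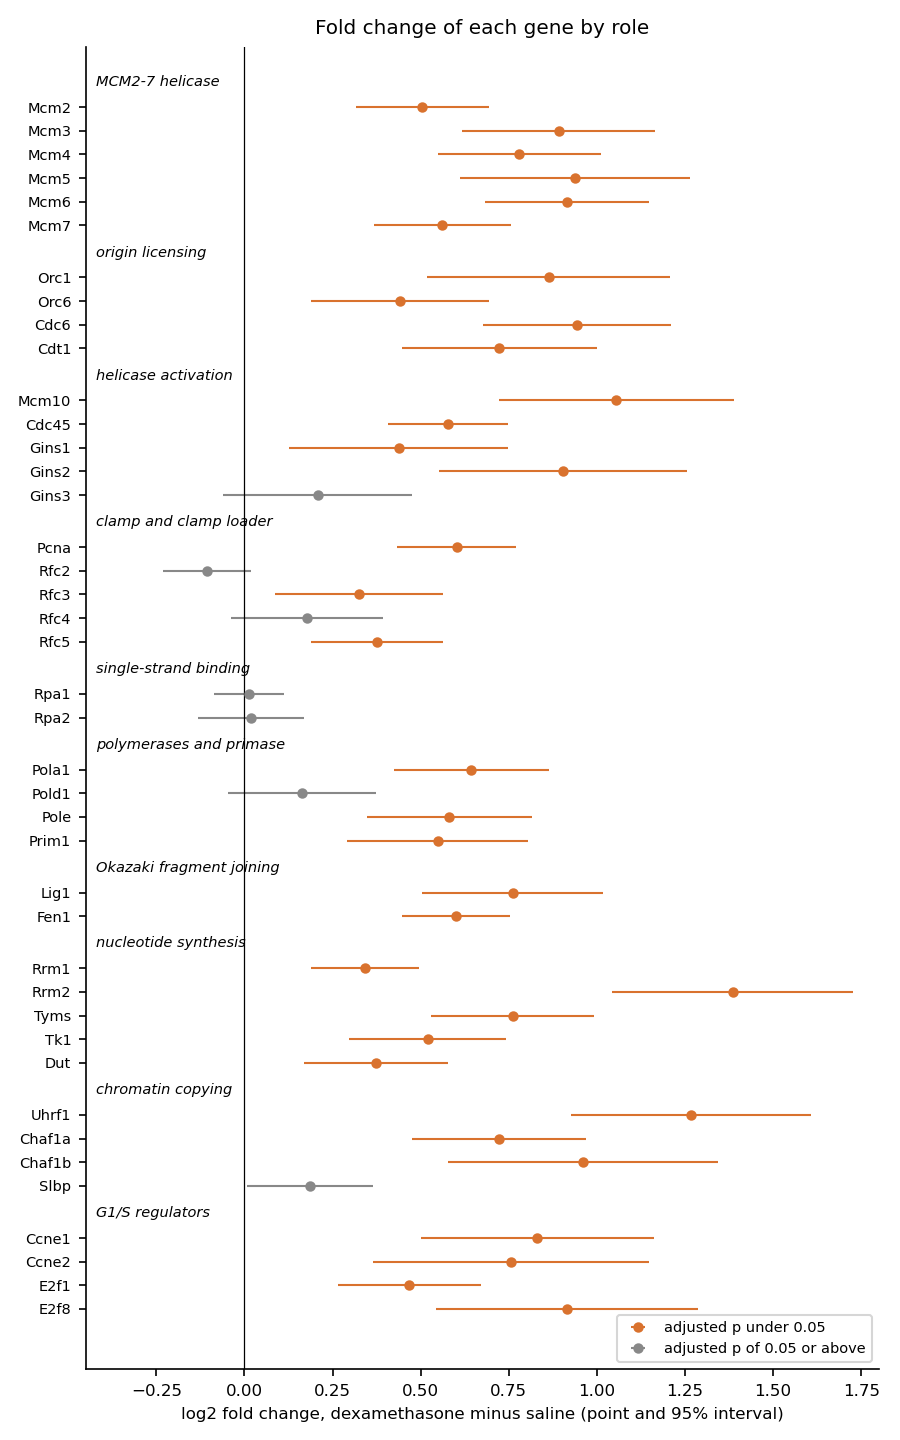
Points are the log2 fold change of each gene, dexamethasone minus saline, with its 95% interval from limma. Orange marks the 34 genes that passed and grey the 7 that did not. Rrm2 lies farthest right at 1.38, and the intervals of Rpa1 and Rpa2 are the ones centred nearest 0.

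All 5 genes of nucleotide synthesis rose. Rrm2, the radical-bearing subunit of ribonucleotide reductase that is made in S phase, was at 3.31, 3.18, 4.14 and 4.21 log2 CPM in saline. With dexamethasone it ran from 4.83 to 5.34 (median 5.09). Saline libraries 1 and 2 were well below 3 and 5, and all dexamethasone libraries were above them, a rise of 1.38 ± 0.16 (SE; adjusted p 6.84e-06, limma). Rrm1, the large subunit, rose 1.27-fold. Per kilobase of exon the saline mean was 3.61 for Rrm1 and 2.58 for Rrm2 on the log2 scale, and the dexamethasone mean was 3.95 and 3.96. Tyms, which makes thymidylate, was at 2.46, 2.34, 2.71 and 3.06 and from 3.24 to 3.57 (median 3.41), and rose by 0.76 ± 0.11 (adjusted p 4.42e-05, limma) without overlap. Dut, which removes dUTP, was at 3.18, 3.40, 3.58 and 3.79 and from 3.66 to 4.09 (median 3.86), with overlap of saline library 5 and 2 dexamethasone libraries. It rose by 0.37 ± 0.10 (adjusted p 0.00487, limma), and Tk1, the S phase thymidine kinase, rose 1.43-fold.

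Of 4 genes that copy chromatin 3 rose. Uhrf1, which brings the maintenance methyltransferase to new DNA, was at 3.30, 3.25, 4.12 and 4.07 log2 CPM in saline and from 4.57 to 5.25 (median 4.90) with dexamethasone. The groups did not overlap, with saline libraries 1 and 2 lowest, and the rise was 1.27 ± 0.16 (SE; adjusted p 1.48e-05, limma). Chaf1a, the large subunit of chromatin assembly factor 1, was at 2.69, 3.23, 3.18 and 3.37 and from 3.48 to 4.03 (median 3.88), a rise of 0.72 ± 0.12 (adjusted p 0.000122, limma). Chaf1b, its partner, rose 1.95-fold. Slbp, which binds the stem-loop of histone mRNA, was at 3.57, 3.79, 3.81 and 4.01 and from 3.75 to 4.13 (median 4.02). The Slbp groups overlapped, and the log2 fold change of 0.18 ± 0.08 did not pass (adjusted p 0.0814, limma). It passed without saline library 5 (0.26, adjusted p 0.022, limma), without dexamethasone library 7 (0.21, adjusted p 0.0375, limma) and on the 8 libraries numbered in both groups (0.29, adjusted p 0.03, limma).

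The 4 G1/S regulators rose. Ccne1, cyclin E1, was at 1.88, 1.81, 2.38 and 2.71 log2 CPM in saline and from 2.53 to 3.25 (median 3.07) with dexamethasone, with 8 of 9 dexamethasone libraries above saline (rise of 0.83 ± 0.16, SE; adjusted p 0.000448, limma). Ccne2, cyclin E2, was at 1.26, 0.19, 1.51 and 1.09 and from 1.56 to 2.06 (median 1.74), all above saline. Saline library 2 was the low one here, with 27 reads, and the rise was 0.76 ± 0.18 (adjusted p 0.00321, limma). E2f1, an activating E2F, was at 2.88, 3.20, 3.34 and 3.45 and from 3.44 to 3.82 (median 3.69), and rose by 0.47 ± 0.10 (adjusted p 0.000875, limma). E2f8, a repressive E2F that acts later in the cycle, was at 3.70, 3.80, 4.57 and 4.71 and from 4.64 to 5.46 (median 5.06). In both E2F genes 8 of 9 dexamethasone libraries were above saline, and E2f8 rose by 0.92 ± 0.17 (adjusted p 0.000519, limma).

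Partners in 1 enzyme or at 1 step had unequal values. These are a description for 6 pairs picked after the values were seen, so no test is reported. The quantity is the log2 difference between the genes within each library. Rrm2 minus Rrm1 was -1.90 ± 0.38 in saline and -0.86 ± 0.12 with dexamethasone (SD, n = 4 and 9). Rrm2 minus Rrm2b, the reductase subunit also used outside S phase, differed between the group means by 1.12. The difference was 0.70 for Gins2 minus Gins3, 0.59 for Pcna minus Rpa1, 0.48 for Rfc5 minus Rfc2 and 0.42 for Pole minus Pold1.

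Members moved together between libraries of 1 group. Among the 4 saline libraries, library 1 held the lowest value in 28 of 41 members and library 5 the highest in 32. Among the 9 dexamethasone libraries, library 7 was lowest in 27. The median deviation from the saline mean was -0.31 in saline library 1, -0.11 in 2, 0.12 in 3 and 0.29 in 5, and between 0.36 (library 7) and 0.73 (library 2) with dexamethasone. The median SD of a member was 0.29 in saline and 0.16 in dexamethasone libraries (log2 scale). Over 820 pairs of members the median Pearson r was 0.84 across 4 saline libraries and 0.53 across 9 dexamethasone libraries, given as a description of points that share each library's scaling and cell content. Without saline library 1 the members called higher were 32 of 41 and the median log2 fold change was 0.52, and without saline library 5 they were 36 and 0.66.

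Fibre RNA had the opposite order to the members over the saline libraries. The summed CPM of 10 mature fibre markers was 169354 in saline library 1, 135753 in 2, 116731 in 3 and 110621 in 5, and 75630 to 111752 with dexamethasone. Of these markers 4 of 10 fell and 0 rose. Its part in the result was not tested.

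**Figure D4:**
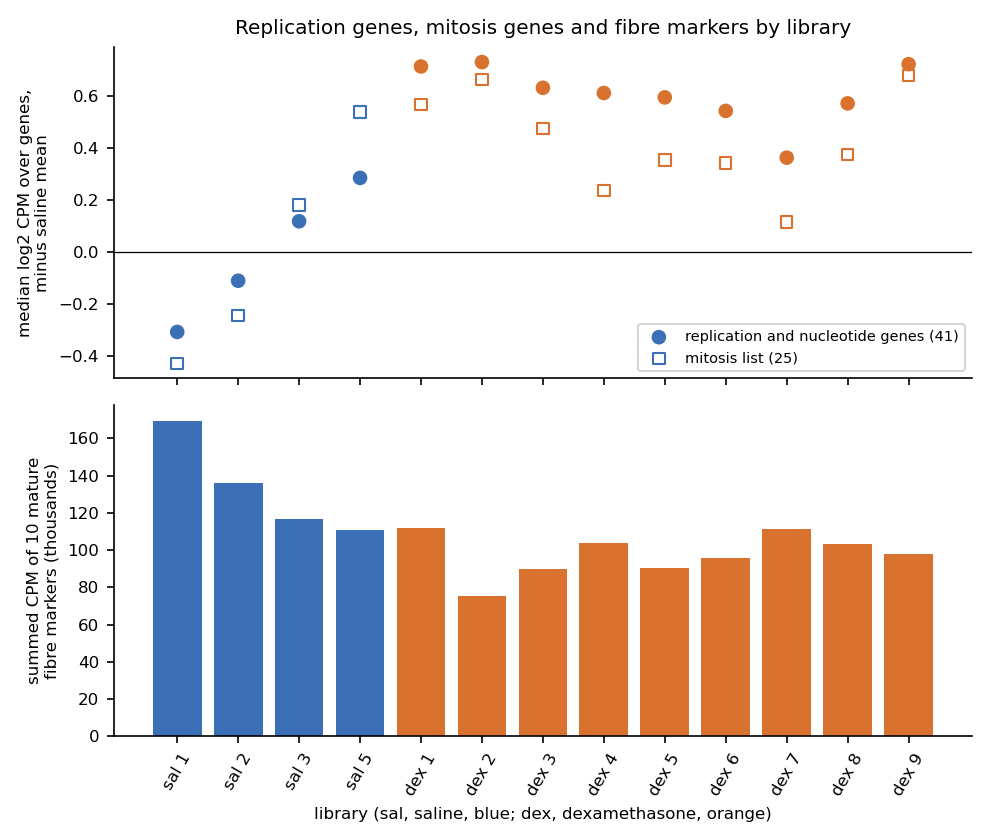
Top, median over 41 replication genes (filled circles) and over 25 mitosis genes (open squares) of log2 CPM minus the saline mean, per library. Bottom, summed CPM of 10 mature fibre markers in the same libraries. All 9 dexamethasone circles, 0.36 to 0.73, are above the 4 saline circles, -0.31 to 0.29, whereas the squares of the groups overlap.

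Markers of other cell types were read in the same libraries. All 11 lymphocyte markers fell, from a sum of 41.2 to 57.7 CPM in saline to 5.5 to 15.6 CPM with dexamethasone. Of 10 macrophage markers 2 rose and 1 fell, with sums of 2042 to 2995 and 2296 to 3039 CPM. Of 8 endothelial markers 1 rose and 0 fell (299 to 349 and 295 to 348 CPM), and of 9 fibro-adipogenic progenitor markers 0 rose and 1 fell (9641 to 13466 and 9397 to 13237 CPM). Of 7 satellite cell and myoblast markers 3 rose and 1 fell, with sums of 199 to 306 CPM in saline and 266 to 345 CPM with dexamethasone. Of 6 differentiating myocyte markers 1 rose and 3 fell, with log2 fold changes from -2.46 to 0.55 and a median of -0.19. Their sums were 8229 to 8965 CPM in saline and 2434 to 4089 CPM with dexamethasone, groups that did not overlap. Each sum in this paragraph is weighted toward the most abundant markers of its list. Of 8 neutrophil markers 1 rose and 2 fell, with sums of 24.2 to 334.1 and 22.6 to 53.2 CPM. No marker was at 0 reads in any library, and the part of each cell type in the replication genes was not tested.

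Other genes of the same pathway, in lists chosen for their roles, followed in part. Of 38 further replisome and origin factors 24 rose and 1 fell, with a median log2 fold change of 0.22. Topbp1, a scaffold of origin firing, rose 1.48-fold, Timeless, of fork protection, 1.42-fold and Dtl, which directs Cdt1 to destruction, 1.87-fold. The fall was Rnaseh2c, at -0.19 (adjusted p 0.0476, limma), a call lost in 12 of 25 alternatives. Of 8 further chromatin copying genes 5 rose and 1 fell. Hells, a chromatin remodeller that works with DNA methylation, rose 2.30-fold, the maintenance methyltransferase gene Dnmt1 1.30-fold and the histone chaperone gene Nasp 1.33-fold, while Rbbp7 was 1.11-fold lower. The Rbbp7 call was lost on the 8 libraries that share a number between groups (adjusted p 0.053, limma).

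Nucleotide supply outside the S phase core was mixed. Of 16 further deoxynucleotide and thymidylate genes 5 rose and 5 fell (31.2% higher), near the background. Mthfd2, a mitochondrial folate enzyme, rose 1.67-fold and Rrm2b 1.20-fold. Shmt1, the cytosolic folate enzyme, was 1.38-fold lower, Samhd1, which degrades deoxynucleotides, 1.18-fold and Mthfd1 1.13-fold. The Mthfd1 call was lost without saline library 1 (adjusted p 0.138, limma), with library weights (0.0573) and on the 8 libraries numbered in both groups (0.135). Rrm2b lost its call on those 8 libraries (adjusted p 0.121, limma) and by the exact rank sum test (adjusted p 0.0991). Of 6 pyrimidine genes 4 rose and 1 fell. Cad, which starts the pathway, rose 1.48-fold, Ctps, which makes CTP, 1.45-fold and Cmpk1 1.47-fold, whereas Dhodh, its mitochondrial step, was 1.18-fold lower. Of 13 purine genes 7 rose and 2 fell: Prps2, Adss and Atic rose 1.37-, 1.26- and 1.23-fold, and Adsl and Ppat were 1.24- and 1.20-fold lower.

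Most genes listed as drivers of the G1/S step were higher, while its brakes were called at about the share of all genes. Of 15 further genes listed as drivers 13 rose and 1 fell, though 8 rose without saline library 1. The list holds E2f7, a partner of E2f8 and like it repressive, which rose 1.98-fold and is not itself a driver. Myc, a growth factor-induced transcription factor, rose 1.90-fold, and Ccnd2 and Ccnd1, which encode D cyclins, 1.53- and 1.48-fold. Ccnd3 and Cdk2, the kinase of cyclin E, each rose 1.24-fold. The calls of Ccnd3 and Cdk2 were lost without saline library 1 (adjusted p 0.0501 and 0.055, limma). The driver that fell was E2f2, 1.31-fold lower. Among 16 brakes 4 rose (25%) and 4 fell, with a median log2 fold change of 0.005. This is near the background of 25.2% of all genes called higher and 22.9% called lower. Cdkn1c, a CDK inhibitor of quiescent and differentiating cells, was at 8.20 ± 0.24 log2 CPM in saline and 6.62 ± 0.30 with dexamethasone (SD, n = 4 and 9), 2.99-fold lower (adjusted p 9.7e-07, limma). Cdkn2d was 1.48-fold lower and E2f6 1.23-fold. Cdkn1b was 1.11-fold lower, a call lost in 13 alternatives. Cdkn1a, the p53-induced inhibitor, rose 1.27-fold. It missed the threshold when saline library 1 or 2 was left out (limma adjusted p 0.068 and 0.0716) and by the exact rank sum test (adjusted p 0.0991). E2f4 rose 1.25-fold, Rbl1 1.28-fold and Rb1 1.18-fold.

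**Figure D5:**
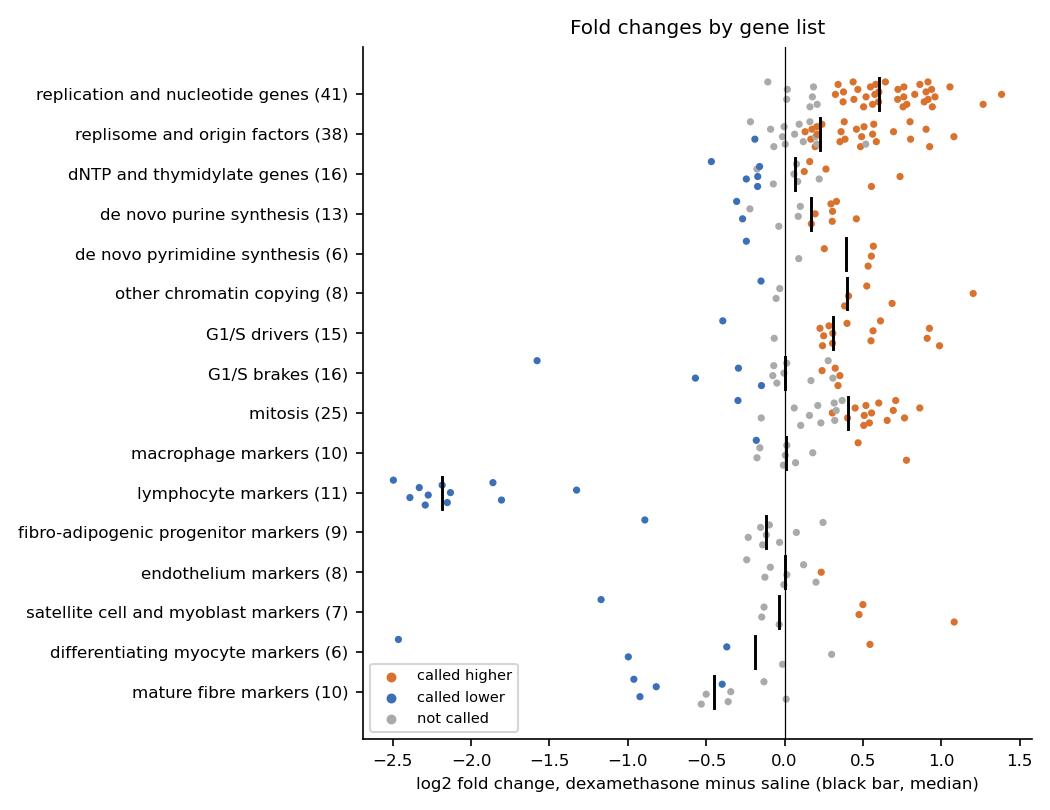
Each point is a gene, placed by its log2 fold change (dexamethasone minus saline) in its list, with the number of genes in brackets. Orange points were called higher, blue points lower and grey points neither, and the black bar is the median. The bar stands at 0.60 for the 41 replication genes and at -2.18 for the lymphocyte markers.

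Mitosis genes, which act after replication, were higher in part. Of 25 measured 14 rose (56%) and 1 fell, against 25.2% of all genes called higher and 22.9% called lower. The median log2 fold change was 0.40. In 0 of 25 did all dexamethasone libraries lie above every saline one, against 21 of 41 replication genes and 12.9% of all genes. The difference between the lists was not tested. Without saline library 1, or without saline library 2, 7 of 25 rose, and 1 rose by the exact rank sum test, whereas 32 of 41 replication genes rose in each of these. Top2a, the topoisomerase of dividing cells, was at 5.19 ± 0.58 log2 CPM in saline and 5.88 ± 0.20 with dexamethasone (SD, n = 4 and 9; adjusted p 0.00418, limma). Mki67, a proliferation marker, was at 5.77 ± 0.45 and 6.22 ± 0.18 (adjusted p 0.0163, limma), and missed the threshold when saline library 1 or 2 was left out (limma adjusted p 0.0861 and 0.0819). Bub1, of the spindle checkpoint, rose 1.70-fold and Cdk1, the mitotic kinase, 1.64-fold. By the exact rank sum test the adjusted p was 0.0991 for Top2a and Mki67 and 0.137 for Cdk1. Pttg1, which encodes securin, was 1.23-fold lower, with all 9 dexamethasone libraries below every saline one. Saline library 5 had a median deviation of 0.54 over mitosis genes, within the dexamethasone range of 0.12 to 0.68, and of 0.29 over replication genes, below the dexamethasone range of 0.36 to 0.73.

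Some members carry a limit of annotation. Exons of Fen1, Gins2 and Chaf1a overlap genes on the opposite strand over 84.1%, 70.7% and 33.6% of their length (GENCODE M21). The libraries kept strand, but whether the counting used it is not given in the sources used here, so reads of these genes are uncertain. Pcna and Tyms have 2 and 1 pseudogenes named after them, whose reads could be shared.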

How the data were processed

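The libraries of 13 mice were analysed. Counting used featureCounts 2.0.1 on mm10, followed by limma 3.50.1, per the submitters' processing notes. The aligner, annotation, filter and strand setting were not given in the sources used here. Values are log2 CPM as deposited by the authors, for 14911 genes, and another deposited table of 14970 genes was an alternative. The authors' deposited fold changes (log2) and adjusted p-values gave counts of calls only. The number of columns that matched no sample, and were not used, was 1. Whole reads were recovered from the log2 values (100% whole within 0.01). A chi-square per gene of at least 7.21 separated every pair of libraries in a group.

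Dexamethasone was compared with saline by limma 3.58.1 (R 4.3.3) with an intensity trend and Benjamini-Hochberg adjustment over 14911 genes, at 0.05. In simulated data limma called 99 of 100 genes whose log2 level was shifted by 1, and 41 of 100 shifted by 0.5. No other gene was changed, all genes had the same dispersion, and 9 of 149 calls were false. In the real comparison 48.1% of genes were called, so these shares do not measure the sensitivity there. The members, lists and rules were chosen with earlier results of these data known. Named members are a preset list of 10 and, per role, the 2 of smallest and the 1 of largest adjusted p. Named genes of other lists are up to 3 called genes of smallest adjusted p in each direction and a preset 12, of which 1 is not reported here. Members outside this rule that are described were chosen after their values were seen. Alternatives covered scaling, filter, offset, variance model, a rank test, the replicate block and each library left out.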

Additional observations from a re-analysis of the deposited data

Results flagged for a closer look

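In 5 of 168 sets of 4 or 9 libraries, over 84 named genes, the highest or lowest library lay far from the others, where chance flags about 1 in 20. Among the members this was Rfc2, at 4.40 log2 CPM in dexamethasone library 7 against 4.54 to 4.66 in the other dexamethasone libraries. The same library was lowest for Hells, at 2.20 against 2.67 to 3.15, and for Atic, at 5.77 against 5.88 to 5.99. It was highest for Cdkn1b, at 5.49 against 5.13 to 5.30. Saline library 1 was highest for Mthfd1, at 5.89 against 5.64 to 5.66 in the other saline libraries.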

How the results depend on the processing

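Over 25 alternatives the members called higher were 32 to 36, and 31 members were called higher in every alternative that tested them. Leaving out each library in turn gave 32 to 36 members higher and a median log2 fold change of 0.518 to 0.664. Members called lower were 0 in all alternatives except quantile normalisation, where 1 (Rfc2) was called, and the cause was not tested. No member changed direction with a call in either the main fit or the alternative. Changes of sign in genes called in neither, such as those near 0, were not counted. Replicate numbers showed no clear pairing of the libraries: the correlation of same-numbered deviations was -0.013, -0.070, -0.031 and 0.119. Libraries with different numbers gave -0.179 to 0.177. So few values cannot exclude a weaker pairing. With the replicate block on the 8 numbered libraries 34 members rose with a median of 0.665, and 34 rose on the same libraries without the block, an alternative chosen after seeing the data. On these 8 libraries the adjusted p with and without the block was 0.16 and 0.115 for Rfc3, 0.0454 and 0.03 for Slbp, 0.0763 and 0.053 for Rbbp7, 0.145 and 0.121 for Rrm2b, and 0.0502 and 0.135 for Mthfd1 (limma). All-gene calls were 3054 higher and 2905 lower with the block. The share of calls that were higher was 52.4%, and 48.2% after median centring. The number of saline libraries, 4, and the spread of libraries 1 and 5 limit the precision.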
